A study of Sus scrofa with 17 samples.

Results

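A set of 10 genes used as markers of endothelial cells, the cells that line blood vessels, were followed in the longissimus muscle of piglets: PECAM1, CDH5, CLDN5, VWF, ENG, EGFL7, KDR, FLT1, TEK and TIE1. The genes were taken by their symbols from a count table of 31908 Ensembl genes (9 by the symbol of the row and 1 by its position), and all 10 passed the filter on low counts that left 14203 genes for testing. The samples were 17 RNA-seq libraries of longissimus dorsi muscle, 1 per piglet, from male Large White × Duroc piglets. Control piglets (n = 6) received a diet of wheat, maize and soybean meal, UL piglets (n = 6) the same kind of diet with 7% of the seaweed Ulva lactuca, and ULU piglets (n = 5) the UL diet with 0.01% of a recombinant ulvan lyase, an enzyme that degrades the cell wall polysaccharide of Ulva. The piglets entered the trial at 28 days of age and were fed the diets for 2 weeks after 5 days of adaptation, so the groups differed in diet, with breed, sex and age in common. The comparisons ask whether the RNA of the vessel lining differed between diets.

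Skeletal muscle fibres are surrounded by capillaries, whose walls consist of a single layer of endothelial cells wrapped by pericytes. PECAM1, CDH5 (VE-cadherin) and CLDN5 sit at the contacts between these cells. VWF is a clotting factor made by endothelial cells and megakaryocytes, ENG is a co-receptor for BMP and TGF-beta ligands, and EGFL7 is a secreted protein of the vessel wall. KDR and FLT1 are the receptors of vascular endothelial growth factor: KDR carries the mitogenic signal, whereas FLT1 binds the ligand tightly and can act as a decoy. TEK (TIE2) is the receptor of the angiopoietins, and TIE1 is its related orphan partner. In a whole muscle sample, fewer endothelial cells and less RNA per endothelial cell cannot be told apart.

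The gene models set what each value stands for. On Sscrofa11.1 the rows were PECAM1 at chr12:14582481-14723336, CDH5 at chr6:27108609-27142180, CLDN5 at chr14:51161032-51163482, ENG at chr1:268306120-268343827, KDR at chr8:41809116-41856339, FLT1 at chr11:5620700-5795264, TEK at chr1:195937394-196051957, TIE1 at chr6:167919668-167940874, and EGFL7 on the unplaced scaffold AEMK02000682.1. Counting was over exons. The exons of KDR, FLT1 and TIE1 lay wholly within the RefSeq spans of these genes (100% of exonic bases), those of CDH5 to 99.2% and those of TEK to 88.8%. No row carried the symbol VWF. The row ENSSSCG00000000712 (chr5:64519186-65002098), named ANO2 in the gene name table, held 8496 of its 11798 exonic bases in the RefSeq span of VWF and 3302 in that of its neighbour ANO2. It is therefore given as the VWF/ANO2 model, and its reads cannot be assigned to VWF alone. The ENG row held 52.2% of its exonic bases in the span of ENG and 48.1% in the span of FPGS, a folate enzyme gene on the opposite strand, and counting did not use strand. In the PECAM1 row 79.2% of exonic bases lay in the span of PECAM1 and 15.6% in that of POLG2. CLDN5 is a single-exon row of 2451 bases, of which 893 lay in its RefSeq span and the rest beyond it.

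Between 16137365 and 26546810 reads were counted per library, and 3 reads corresponded to 0.13 to 0.195 CPM (counts scaled to a common library size, scaled by edgeR's TMM factors). Markers of skeletal muscle fibres, the labelled tissue, summed to between 105830 and 273130 CPM in the libraries. The endothelial members stood apart in a few libraries. UL replicate 32 held the highest value of all 17 libraries for 5 of the 10 members, and its geometric mean over the members was 15.9 CPM against 6.97 to 12.9 CPM in the other libraries. Control replicate 21 had the lowest geometric mean, 6.97 CPM, and only 1 of the 10 members was above its own mean there. In UL replicate 32, 12 of the 21 matched genes of a separate list of other endothelial genes also reached their highest value of the 17 libraries, among them CD93 (29.4 CPM, next highest 20.7 CPM), ERG (9.48 CPM, next 7.82 CPM) and PLVAP (13.3 CPM, next 9.68 CPM). Results are given with and without these libraries where they rest on them.

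Per kilobase of exon, the members spanned from well above to well below the middle of the tested genes. PECAM1 had a mean level of 8.61 ± 2.46 CPM per kilobase (SD, n = 17), followed by CDH5 with 7.16 ± 2.13, CLDN5 with 4.995 ± 1.67, KDR with 2.82 ± 0.829, ENG with 2.57 ± 0.491, and TEK with 2.33 ± 0.600 CPM per kilobase. Lower levels were found for TIE1 (1.13 ± 0.371 CPM per kilobase), the VWF/ANO2 model (0.543 ± 0.297), EGFL7 (0.393 ± 0.208) and FLT1 (0.307 ± 0.0850). PECAM1 thus lay above 81.1% and FLT1 above 16.4% of the 14203 genes on this scale. The steps from CDH5 to CLDN5 and from TEK to TIE1 were seen in 17 of 17 libraries, and those from CLDN5 to KDR and from TIE1 to the VWF/ANO2 model in 16. PECAM1 exceeded CDH5 in 14 libraries, and the VWF/ANO2 model exceeded EGFL7 in 14. KDR exceeded ENG in 10, ENG exceeded TEK in 10 and EGFL7 exceeded FLT1 in 11 of the 17 libraries, so that these neighbours were not separated beyond their spread. Within the VEGF receptors, KDR was above FLT1 in every library, by 5.10 to 20.2 times per kilobase. Within the TIE receptors, TEK was above TIE1 in every library, by 1.19 to 3.29 times. These levels divide by the full exonic length of a row, so they also depend on the gene models. The PECAM1 row shared exonic bases with the rows of DDX5, MILR1 and POLG2. The ENG row shared 1093 of its 6814 exonic bases with the row of FPGS. The part of the gene models in the order was not tested.

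**Figure D1:**
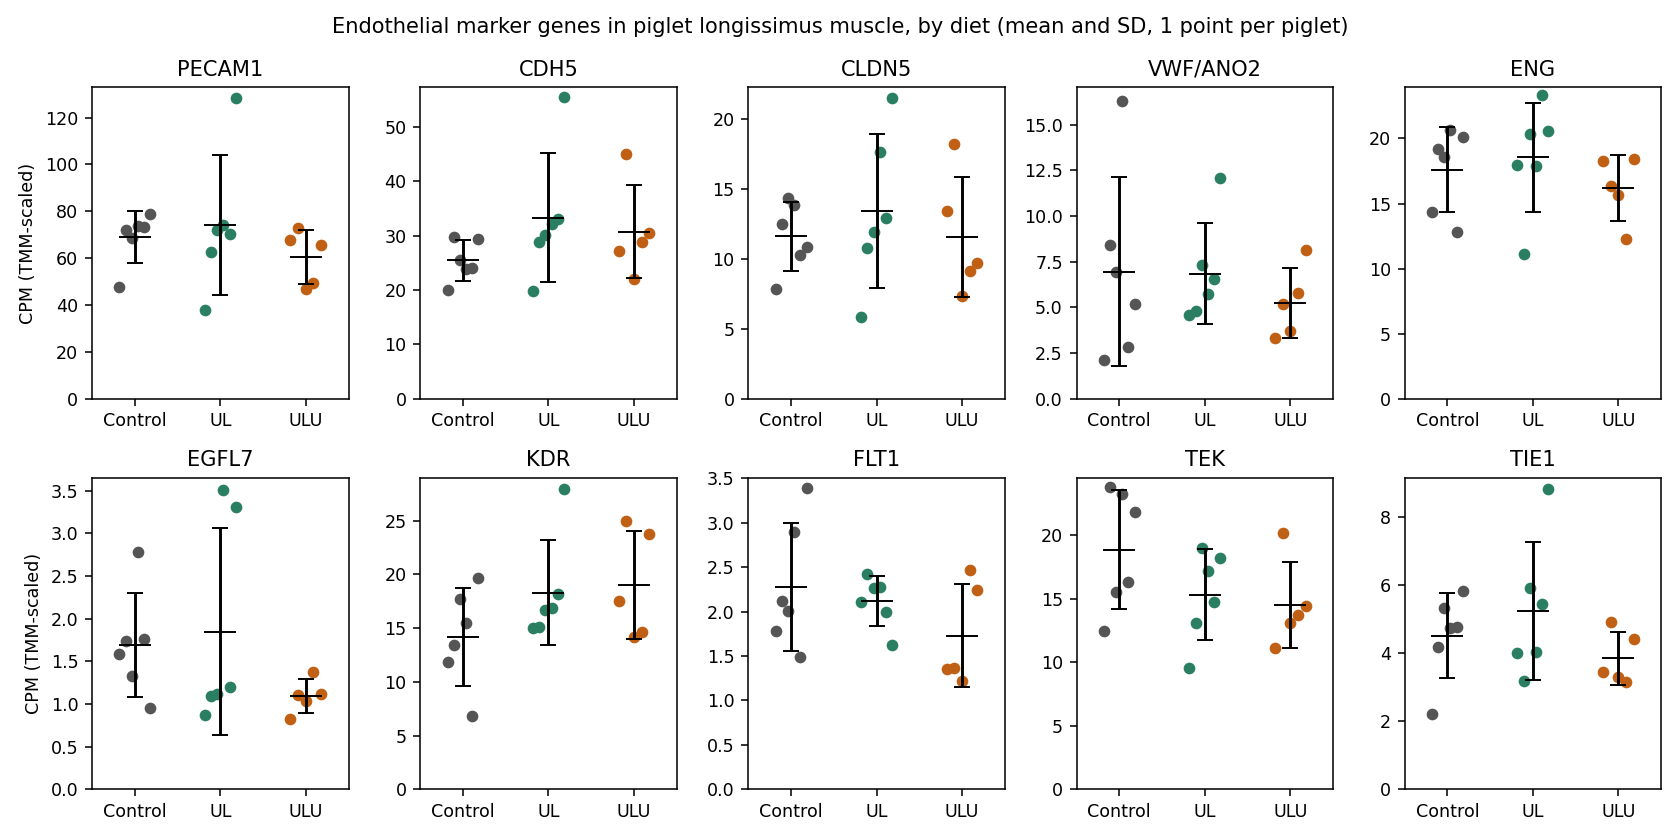
CPM (y axis, linear from 0) of the 10 endothelial marker genes in Control (n = 6), UL (n = 6) and ULU (n = 5) piglets; points are piglets, and the horizontal line and bar give mean and SD. The ranges of the 3 diets overlapped for every gene, and UL replicate 32 is the highest UL point for 6 genes.

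No junction gene passed the test in any comparison (edgeR), and CDH5 had the highest estimate of them. PECAM1 ranged from 47.7 to 78.7 CPM in control (median 72.6), from 37.7 to 128 CPM in UL (median 71.3), and was 67.7, 72.8, 47.0, 49.2 and 65.5 CPM in the 5 ULU piglets. The highest and lowest values of the study were both in UL piglets, and every ULU value lay inside the control range or within 1 CPM below it. The log2(fold change) of PECAM1 was 0.10 ± 0.21 (SE) in UL vs control (adjusted p = 0.901, edgeR) and -0.19 ± 0.22 in ULU vs control (adjusted p = 0.672, edgeR). CDH5 ranged from 19.99 to 29.7 CPM in control (median 24.8), from 19.9 to 55.5 CPM in UL (median 31.2), and was 27.3, 45.03, 22.0, 28.8 and 30.5 CPM in ULU. In all, 4 of the 6 UL piglets and 2 of the 5 ULU piglets were above the highest control. The log2(fold change) of CDH5 was 0.38 ± 0.20 in UL vs control (95% interval -0.030 to 0.80, unadjusted p = 0.0673, adjusted p = 0.5003, edgeR) and 0.27 ± 0.21 in ULU vs control (adjusted p = 0.518, edgeR). Without UL replicate 32 the UL estimate of CDH5 was 0.18, and without ULU replicate 41 the ULU estimate was 0.094. CLDN5, the claudin of tight junctions, ranged from 7.83 to 14.4 CPM in control (median 11.7), from 5.82 to 21.5 CPM in UL (median 12.4), and was 13.4, 18.2, 7.37, 9.17 and 9.73 CPM in ULU. Its log2(fold change) was 0.21 ± 0.26 for UL against control and -0.0090 ± 0.27 in ULU vs control, with adjusted p of 0.821 and 0.991 (edgeR).

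Among the other vessel wall genes, the VWF/ANO2 model was the most variable. It ranged from 2.10 to 16.3 CPM in control (median 6.04), from 4.58 to 12.1 CPM in UL (median 6.14), and was 3.32, 5.20, 3.73, 5.77 and 8.12 CPM in ULU. The control group alone held both the lowest and the highest of the 17 values, a 7.76-fold span. The highest, control replicate 24, was also the highest of all libraries for MYH11 (12.7 CPM, next highest 3.14 CPM) and TAGLN (50.4 CPM, next 32.0 CPM), markers of vascular smooth muscle, and for ADIPOQ (238 CPM, next 65.1 CPM), a fat cell marker; their part in the VWF/ANO2 value was not tested. The log2(fold change) of the model was -0.025 ± 0.38 for UL against control and -0.41 ± 0.41 in ULU vs control (adjusted p = 0.990 and 0.621, edgeR). The ULU estimate was 0.037 without control replicate 24 and -0.63 without ULU replicate 44. The ENG row was the steadiest, with a coefficient of variation of 19.1% over the 17 libraries. With 48.1% of its exonic bases in the span of FPGS, its reads cannot be assigned to ENG alone. The part of FPGS in its low spread was not tested. It ranged from 12.8 to 20.7 CPM in control (median 18.9), from 11 to 23.3 CPM in UL (median 19.1), and was 18.3, 16.4, 15.6, 12.3 and 18.4 CPM in ULU. The log2(fold change) of ENG was 0.074 ± 0.16 for UL against control and -0.12 ± 0.17 in ULU vs control, and the 95% interval of the latter ran from -0.48 to 0.24.

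EGFL7 rested on 17 to 74 reads per library. It ranged from 0.956 to 2.78 CPM in control (median 1.67), from 0.875 to 3.51 CPM in UL (median 1.15), and was 0.830, 1.10, 1.04, 1.38 and 1.12 CPM in ULU. Replicates 30 and 32 supplied the high UL values, 3.51 and 3.31 CPM, whereas the other 4 UL piglets did not exceed 1.19 CPM, within the range of ULU. EGFL7 had the lowest estimates of the members, a log2(fold change) of -0.63 ± 0.38 in ULU vs control (adjusted p = 0.398, edgeR) and -0.75 ± 0.38 in ULU vs UL (unadjusted p = 0.0633, adjusted p = 0.494, edgeR), the latter -0.46 without UL replicate 30. In a two-sided exact permutation test of mean log2 CPM, its difference between ULU and control had p = 0.0455, unadjusted. This was the only 1 of 30 such tests (10 genes, 3 comparisons) with p under 0.05.

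For the VEGF receptors, the KDR and FLT1 estimates lay on opposite sides of 0 against control. KDR ranged from 6.85 to 19.6 CPM in control (median 14.4), from 14.98 to 27.9 CPM in UL (median 16.8), and was 17.6, 24.9, 14.2, 14.7 and 23.7 CPM in ULU. The lowest seaweed-fed piglet was at 14.2 CPM, above 3 of the 6 control piglets, but the ranges overlapped. Its log2(fold change) was 0.37 ± 0.22 in UL vs control (adjusted p = 0.581, edgeR) and 0.43 ± 0.23 in ULU vs control (95% interval -0.058 to 0.91, unadjusted p = 0.0809, adjusted p = 0.332, edgeR). Control replicate 25 held the lowest KDR value, 6.85 CPM, and without it the KDR estimates were 0.23 for UL and 0.28 for ULU. Without UL replicate 32 the UL estimate of KDR was 0.21. FLT1 rested on 21 to 71 reads per library. It ranged from 1.49 to 3.39 CPM in control (median 2.06), from 1.62 to 2.43 CPM in UL (median 2.19), and was 1.35, 1.36, 1.21, 2.46 and 2.24 CPM in ULU. In ULU, 3 piglets were below the lowest control and the other 2 were within the control range. The log2(fold change) of FLT1 was -0.11 ± 0.24 in UL vs control (adjusted p = 0.916, edgeR) and -0.40 ± 0.26 in ULU vs control (adjusted p = 0.426, edgeR), the latter -0.24 without control replicate 26.

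For the TIE receptors, TEK ranged from 12.5 to 23.8 CPM in control (median 19.1), from 9.58 to 19.03 CPM in UL (median 15.97), and was 11.14, 20.2, 13.1, 13.7 and 14.4 CPM in ULU. Among the controls, 3 piglets, at 21.8 CPM or more, exceeded every seaweed-fed piglet. The log2(fold change) of TEK was -0.30 ± 0.19 in UL vs control (adjusted p = 0.607, edgeR; -0.20 without UL replicate 27) and -0.38 ± 0.20 in ULU vs control (95% interval -0.80 to 0.035, unadjusted p = 0.0703, adjusted p = 0.310, edgeR). TIE1 ranged from 2.23 to 5.83 CPM in control (median 4.76), from 3.18 to 8.84 CPM in UL (median 4.75), and was 3.45, 4.94, 3.29, 3.15 and 4.43 CPM in ULU. All ULU values lay within the control range. Its log2(fold change) was 0.21 ± 0.25 in UL vs control (adjusted p = 0.810, edgeR), -0.24 ± 0.26 in ULU vs control (adjusted p = 0.662, edgeR) and -0.44 ± 0.26 in ULU vs UL (adjusted p = 0.569, edgeR), the last -0.24 without UL replicate 32.

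**Figure D2:**
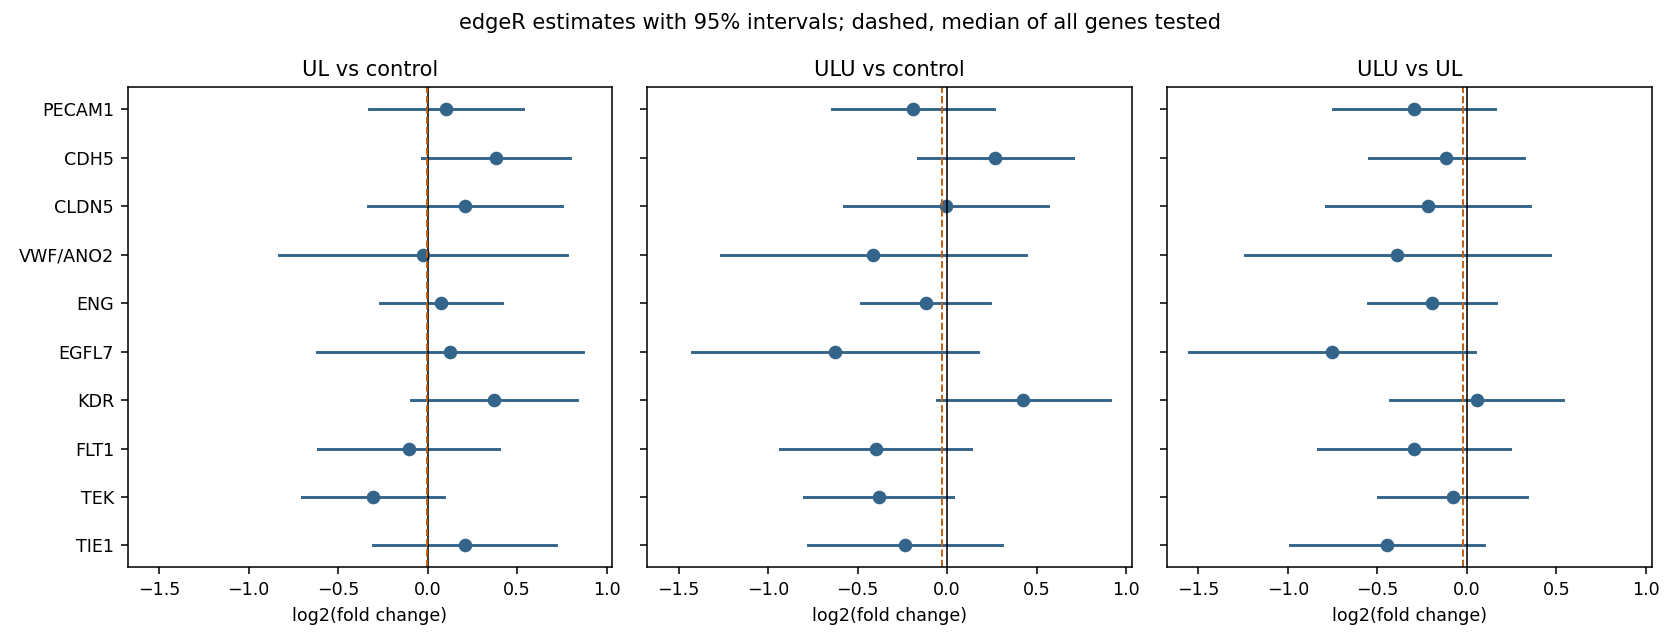
log2(fold change) (x axis) of the 10 endothelial marker genes in the 3 comparisons; points are edgeR estimates, lines their 95% intervals, and the dashed line the median of all 14203 genes tested. Every interval includes 0, and the widest belong to the VWF/ANO2 model and EGFL7.

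None of the 10 members passed an adjusted p of 0.05 in any comparison (edgeR's quasi-likelihood test, adjusted over all genes), and none had an unadjusted p under 0.05. The share of all genes called was 0% in UL vs control, 2.98% in ULU vs control and 0.0352% in ULU vs UL, and a count of 0 of 10 is close to these shares. DESeq2, which called 149, 825 and 246 genes in the same comparisons when fitted to the 2 diets compared, called none of the members to which it gave an adjusted p. These were 8, 10 and 2 of the 10, and the others received no adjusted p there and so could not be called. Every member had ranges of CPM that overlapped between each pair of diets, where 0.852%, 3.39% and 1.75% of all genes did not. The median log2(fold change) of the members was 0.11 in UL vs control, -0.21 in ULU vs control and -0.26 in ULU vs UL, beside medians of -0.0027, -0.028 and -0.021 over all genes. Of the 10 members, 7 were above 0 for UL against control, 2 for ULU against control and 1 for ULU against UL; these comparisons share their groups. The UL values rest on UL replicate 32: without it the median in UL vs control was -0.021 with 4 of 10 above 0, and that in ULU vs UL was -0.11 with 2 of 10 above 0. Without both UL replicate 32 and control replicate 21, a choice made after seeing the data, the medians were -0.12 for UL against control and -0.33 in ULU vs control. The 95% intervals of PECAM1, CDH5, CLDN5, KDR, FLT1, TEK, TIE1 and ENG lay within 1 of 0 (log2 scale) in all 3 comparisons. A doubling or halving of the signal of these 8 rows lay outside them. The ENG row also covers bases in the span of FPGS and the PECAM1 row bases in that of POLG2. For these 2, the statement holds for the row and not for the gene alone. For the VWF/ANO2 model and EGFL7, a halving in ULU lay inside the intervals of ULU vs control and ULU vs UL.

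**Figure D3:**
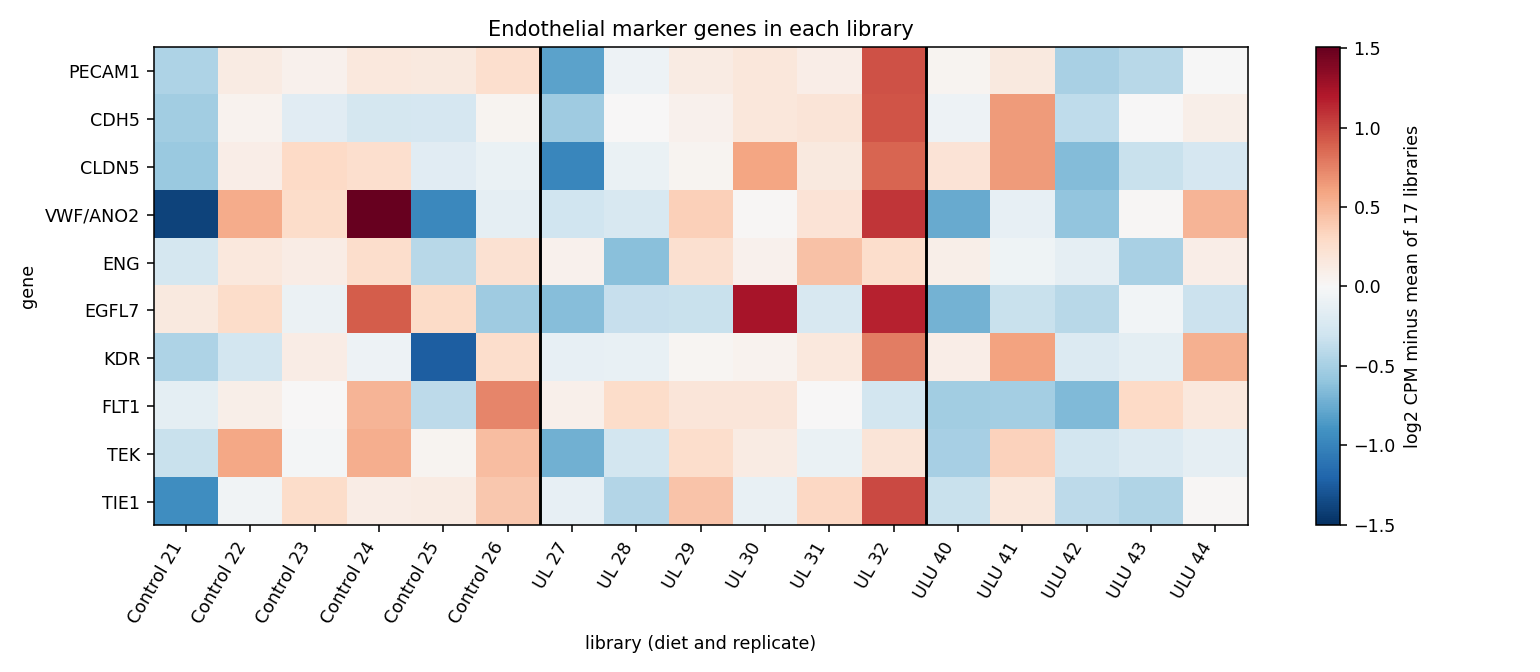
Deviation of each member's log2 CPM from its mean over 17 libraries (colour; red above, blue below) in each library (x axis, by diet, black lines between diets). UL replicate 32 is above the mean for 9 of 10 members, ULU replicate 42 for none, and control replicate 21 for 1.

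The differences between diets in the mean level over the members were smaller than the SD between piglets of control or of UL. The geometric mean CPM over the members was 10.1 ± 2.17 in control (SD, n = 6), 10.9 ± 2.95 in UL (n = 6) and 9.10 ± 1.48 in ULU (n = 5). ULU replicate 42 was below the mean of the 17 libraries for all 10 members, and UL replicate 27 held the lowest value of the study for 4 of them, PECAM1, CDH5, CLDN5 and TEK. Control replicate 21 was the lowest for the VWF/ANO2 model and TIE1.

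With diet means removed, most members varied together across the 17 libraries. Of the 45 pairs, 40 had a Pearson's r above 0, with a median of 0.50 and a range of -0.10 to 0.89, and the median Spearman's rho was 0.51. A total of 19 pairs passed an adjusted p of 0.05 by r, and 19 by rho (100000 permutations, Benjamini-Hochberg over the 45 pairs). By r over all libraries the 3 junction pairs were the highest. By rho the highest pair was KDR and TIE1 (0.75), with junction pairs at 0.68 to 0.73, and without the 2 farthest libraries it was PECAM1 and TIE1 (r = 0.79), with junction pairs at 0.74 to 0.77. PECAM1 and CDH5 had r = 0.89 (permutation p = 1e-05, the smallest these permutations can give, adjusted p = 0.000225) and rho = 0.70 (permutation p = 0.00263, adjusted p = 0.012). With the 2 most extreme PECAM1 libraries left out (the farthest from its median), r was 0.74. PECAM1 and CLDN5 had r = 0.88 (permutation p = 1e-05, adjusted p = 0.000225) and rho = 0.73 (permutation p = 0.00136, adjusted p = 0.0118), and r = 0.77 without the 2 farthest libraries. Of the receptors, TEK, TIE1 and KDR each had pairs with junction genes that passed. CDH5 and TEK had r = 0.74 (permutation p = 0.00063, adjusted p = 0.00612) and rho = 0.70 (permutation p = 0.00226, adjusted p = 0.012), and r = 0.73 without the 2 farthest libraries. CDH5 and KDR had r = 0.64 (permutation p = 0.00666, adjusted p = 0.0268) and rho = 0.74 (permutation p = 0.00121, adjusted p = 0.0118), and r = 0.42 without the 2 farthest libraries. TEK and its partner TIE1 had r = 0.62 (permutation p = 0.00716, adjusted p = 0.0268) and rho = 0.58 (permutation p = 0.0164, adjusted p = 0.0409), and r = 0.68 without the 2 farthest libraries.

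FLT1 was the exception. Its median r with the other 9 members was -0.00088, its highest r was 0.43, with the VWF/ANO2 model, and none of its pairs passed. With KDR, the other VEGF receptor, FLT1 had r = 0.30 (permutation p = 0.245, adjusted p = 0.315) and rho = 0.18 (permutation p = 0.479, adjusted p = 0.582), and r = 0.27 without the 2 most extreme KDR libraries. FLT1 had few reads in every library, 21 to 71, and counting error adds to its spread; the part of depth in its low correlations was not tested. EGFL7, with 17 to 74 reads, had a median r of 0.42 and passed in 1 pair, with CLDN5 (r = 0.56, permutation p = 0.0193, adjusted p = 0.0461, and rho = 0.42, permutation p = 0.0943, adjusted p = 0.153); without the 2 farthest libraries this r was 0.17.

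The number of pairs that passed rested in part on UL replicate 32. Without it 9 pairs passed and the median r was 0.43, and without control replicate 21, 12 pairs passed with a median of 0.47. With both left out, a choice made after seeing the data, 4 pairs passed and the median r was 0.38, with 41 of 45 pairs above 0. The direction of the covariation thus held with and without these libraries.

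**Figure D4:**
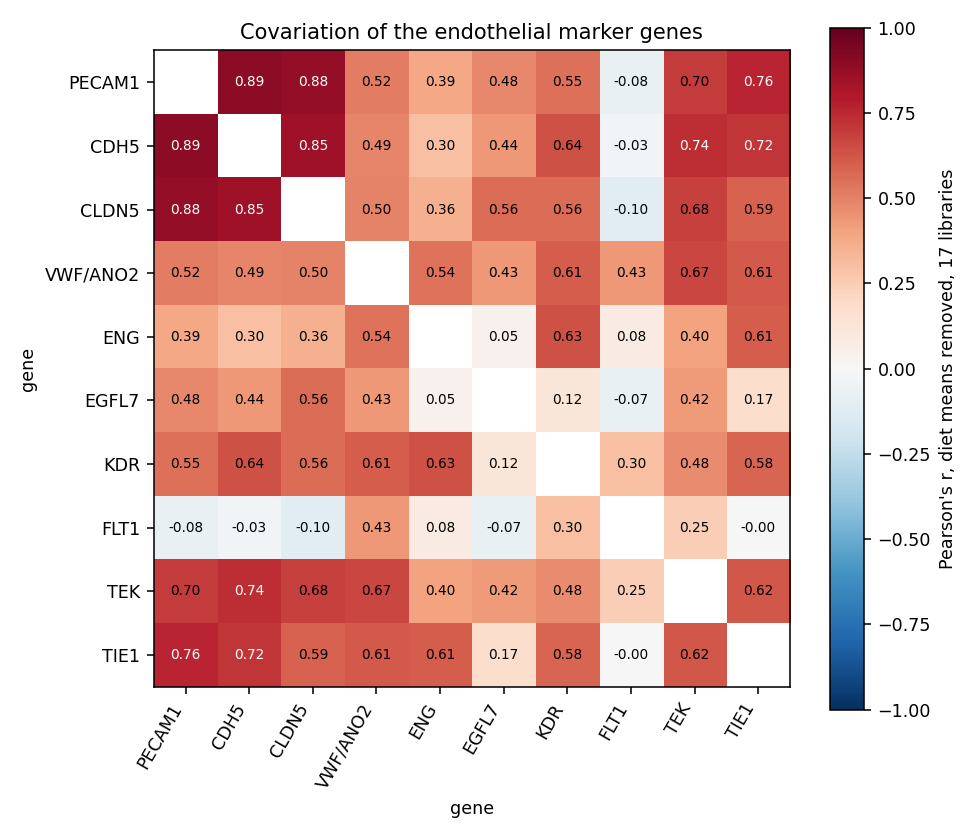
Pearson's r of log2 CPM between each pair of endothelial marker genes over 17 libraries after removal of diet means (colour from blue, -1, to red, 1; both axes list the genes). PECAM1, CDH5 and CLDN5 form the reddest set (0.85 to 0.89), and the FLT1 row runs from -0.10 to 0.43 (median -0.00088).

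Genes outside the members that followed them most closely included known vessel genes. The measure was Pearson's r over 17 libraries between a gene's log2 CPM, diet means removed, and the mean of the members' standardised values. Across the other 14193 genes it had a median of 0.012 and a 95th percentile of 0.50. The 8 highest were EVA1A (r = 0.85), CCL14 (0.85), CYB561 (0.84), ESAM (0.83), CAV1 (0.83), NRP1 (0.82), CYYR1 (0.82) and PXDN (0.82). ESAM is an adhesion molecule of endothelial junctions, NRP1 is a co-receptor of VEGF that pairs with KDR, and CAV1 is the caveolin of the caveolae that are abundant in endothelium and fat cells. EVA1A averaged 0.425 CPM and was at 0 in at least 1 library, so its place rests on few reads.

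By list, the median r with the members was 0.56 for the 19 tested genes of the other endothelial list, 12 of which were above the 95th percentile of all genes. It was 0.38 for 11 mural cell genes, which ranged from 0.062 for ABCC9 to 0.73 for KCNJ8, the subunits of 1 potassium channel of pericytes. Other pericyte genes lay between, PDGFRB at 0.64, RGS5 at 0.58 and NOTCH3 at 0.24, as did the smooth muscle genes TAGLN (0.38), ACTA2 (0.32), CNN1 (0.11) and MYH11 (0.065). It was 0.34 for 21 genes of angiogenic signalling, which ranged from -0.20 for VHL to 0.82 for NRP1. Among the receptors, NRP2 was at 0.77, NOTCH4 at 0.69, NOTCH1 at 0.34, BMPR2 at 0.27 and ACVRL1 at 0.11. Among the ligands, DLL4 was at 0.75, VEGFC at 0.68, JAG1 at 0.28 and VEGFA at -0.16. The medians were 0.31 for 5 lymphatic endothelial genes, 0.17 for 6 fibroblast genes, 0.083 for 5 adipocyte genes, 0.084 for 5 skeletal muscle fibre genes, -0.0037 for 7 leukocyte genes, 0.0043 for 4 red cell genes and -0.14 for 5 slow fibre genes. The only platelet gene tested, GP9, had r = 0.54, above the 95th percentile of all genes. These are descriptions over the same 17 libraries, which share UL replicate 32 and control replicate 21.

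**Figure D5:**
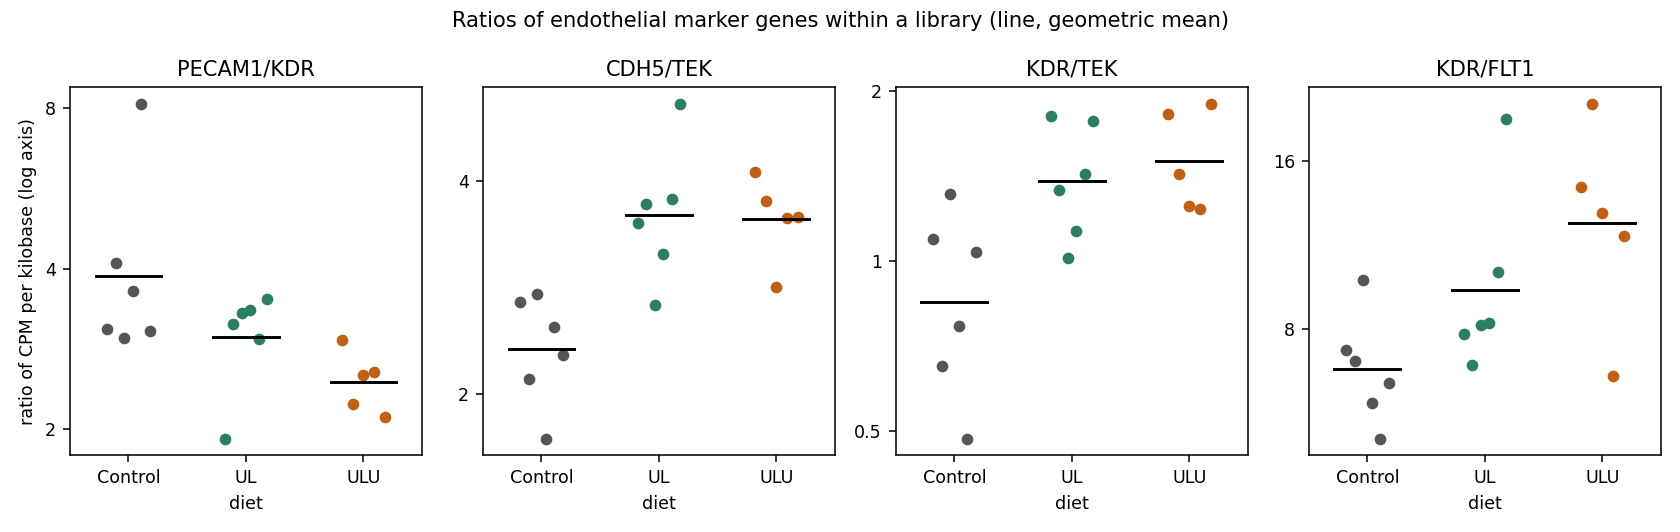
Ratio of CPM per kilobase (y axis, log scale) between 2 members within each library, by diet (x axis); points are piglets and lines geometric means. In the first 2 panels the ULU and control points do not overlap, and in the other 2 they do.

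Since most members varied together, the ratios between members within a library were also examined. Of the 45 ratios, none in UL vs control, 2 in ULU vs control and none in ULU vs UL had ranges that did not overlap between the diets; over all pairs of tested genes the shares were 0.663%, 2.36% and 1.31%. The pairs share members and were read off after their values were seen, so no test is given. CDH5/TEK ranged from 1.73 to 2.77 in control (median 2.38) and from 2.83 to 4.12 in ULU (median 3.56). In UL it ranged from 2.67 to 5.14 (median 3.60). Its mean log2 ratio was above that of control by 0.63 in UL and by 0.61 in ULU. PECAM1/KDR ranged from 2.96 to 8.14 in control (median 3.36) and from 2.11 to 2.94 in ULU (median 2.53). In UL it ranged from 1.92 to 3.51 (median 3.22). In both cases the gap between the nearest control and ULU piglets was small. The receptor ratios KDR/TEK and KDR/FLT1 were also higher on average in ULU. Control replicate 25, with the lowest KDR value, was the highest control for PECAM1/KDR (8.14, next 4.10). It was also the lowest control for KDR/TEK (0.485) and KDR/FLT1 (5.10), and the control geometric means include it. The geometric mean of KDR/TEK was 0.846 for control, 1.39 for UL and 1.503 for ULU, but its highest control value, 1.32, exceeded 2 of the 5 ULU values. That of KDR/FLT1 was 6.78 for control, 9.42 for UL and 12.4 for ULU, and ULU replicate 43, at 6.60, lay within the control range of 5.10 to 9.79.

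The other lists of the vessel and its surroundings gave no call among vascular genes. In the list of other endothelial genes, 0 of 19 tested genes passed in each comparison (edgeR), and 0, 4 and 4 had an unadjusted p under 0.05 for UL against control, ULU against control and ULU against UL, beside 10.8%, 18.9% and 10.8% of all genes. Their median log2(fold change) was 0.064, -0.27 and -0.27, close to that of the members. In ULU vs control the smallest p-values belonged to CLEC14A, an endothelial adhesion lectin (log2(fold change) -0.32 ± 0.11, adjusted p = 0.106, edgeR), and NOS3, the endothelial nitric oxide synthase (-1.02 ± 0.45, adjusted p = 0.225, edgeR). CLEC14A ranged from 34.7 to 51.0 CPM in control and from 31.5 to 37.8 CPM in ULU, and NOS3 from 0.318 to 1.86 and from 0.195 to 0.789 CPM, with 275 reads over all 17 libraries. In ULU vs UL they belonged to RAMP2 (-0.40 ± 0.16, adjusted p = 0.380, edgeR) and the transcription factor SOX7 (-0.70 ± 0.29, adjusted p = 0.403, edgeR). In UL vs control they belonged to the sphingosine-1-phosphate receptor S1PR1 (0.31 ± 0.18, adjusted p = 0.549, edgeR) and CLEC14A (-0.14 ± 0.10, adjusted p = 0.687, edgeR).

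In the list of angiogenic signalling, 0 of 21 tested genes passed in each comparison (edgeR). An unadjusted p under 0.05 was found for 0, 1 and 4 of them, beside 10.8%, 18.9% and 10.8% of all genes. The list was thus below the share of all genes against control for both seaweed diets, and above it in ULU vs UL. The Notch ligand JAG1 had the smallest p in ULU vs control, with a log2(fold change) of -0.59 ± 0.19 (adjusted p = 0.0848, edgeR). It ranged from 4.97 to 12.3 CPM in control and from 3.97 to 5.91 CPM in ULU. JAG1 was at -0.48 ± 0.19 in ULU vs UL (adjusted p = 0.365, edgeR). NRP1 was at -0.30 ± 0.15 in ULU vs control and -0.43 ± 0.15 in ULU vs UL (adjusted p = 0.280 and 0.305, edgeR). In UL vs control, the smallest p-values were those of HEY1, a Notch target (-0.34 ± 0.19, adjusted p = 0.543, edgeR), and the inhibitory SMAD7 (0.87 ± 0.50, adjusted p = 0.558, edgeR).

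No gene of the mural cell, lymphatic, platelet, red cell, leukocyte, fibroblast, adipocyte or general skeletal muscle fibre lists passed in any comparison (edgeR). Of the 5 tested slow fibre genes, 2 passed in ULU vs control, where 2.98% of all genes did. They were the slow troponins TNNT1 (log2(fold change) 1.30 ± 0.27, adjusted p = 0.0178, edgeR) and TNNI1 (0.92 ± 0.23, adjusted p = 0.0406, edgeR). All 5 were above 0 with an unadjusted p under 0.05 (edgeR) for each seaweed diet against control. Over all genes, 10.8% had such a p for UL and 18.9% for ULU. The median log2(fold change) of the 5 genes was 0.62 for UL, where none passed, and 0.92 for ULU. TNNT1 ranged from 298 to 711 CPM in control, from 574 to 1176 CPM in UL and from 505 to 1587 CPM in ULU. The summed CPM of the members ranged from 122 to 197 in control, from 118 to 298 in UL and from 129 to 210 in ULU. Beside these, the 5 matched skeletal muscle fibre genes summed to 105830 to 167710 CPM in control and 143730 to 273130 CPM in ULU. Summed leukocyte markers ranged from 40.0 to 179 CPM in control, from 55.2 to 124 CPM in UL and from 24.7 to 167 CPM in ULU. The part of these other cell types in the endothelial values was not tested. The 4 matched genes of the 6 platelet markers summed to at most 1.34 CPM in any library. This was mostly GP9 (224 reads over the 17 libraries, 0.318 to 1.05 CPM), while PPBP, GP1BA and TREML1 were below the filter on low counts. ITGA2B and PF4 had no matched row, so platelet RNA was covered only in part.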

How the data were processed

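RNA was sequenced from 17 muscle samples, 1 per piglet. Reads were trimmed (fastp), mapped (HISAT2) and counted by the authors, who deposited the raw count of each gene from featureCounts 2.0.1 on Ensembl 104 (Sscrofa11.1) per the file header, without options for strand or for reads that overlap several genes; the submitters' processing notes list Subread 1.5.1 and DESeq2 1.34.0. The table also holds the authors' mean count over libraries, which was not used. Groups and replicate names come from the sample labels, which place 5 libraries in ULU. Members and gene lists were chosen with earlier results of these data known.

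Counts were fitted with edgeR 4.0.16 (R 4.3.3): TMM factors, filterByExpr, and the quasi-likelihood F test with the 17 libraries in one model. P-values were adjusted by Benjamini-Hochberg over 14203 genes, and a gene was called at an adjusted p under 0.05. The standard error is the log2 fold change divided by the square root of F. log2 CPM used a prior count of 2. CPM per kilobase divides by exonic length. Single genes were also compared by two-sided exact permutation tests, and pairs of members by Pearson and Spearman correlations with 100000 permutations (Python 3.11.15, scipy 1.17.1). Named genes were the 10 members, any gene on the other lists with an adjusted p under 0.05, the 2 with the smallest p per comparison on 2 vascular lists, and the 8 most like the members. A row was given a missing symbol by position where at least 50% of its exonic bases lay in the RefSeq span of that gene. On simulated counts for 14203 genes, edgeR recovered 54% of changes of 1 and 87% of changes of 2 on the log2 scale in ULU vs control, and 53% and 86% in UL vs control. Of the calls made there, 1.40% and 3.47% were false with edgeR, and 16.4% and 12.2% with DESeq2 on 2 diets. The counts were drawn once per comparison from edgeR's own estimates of spread, without outlying libraries. These rates therefore cannot be carried over to the DESeq2 calls in the real data. Changes smaller than 1, the size of every member estimate, were not simulated. Each library is a piglet of its own, and p-values measure the spread between piglets. Alternatives were DESeq2 1.42.0, other scalings and filters, fits on 2 diets, and leaving out each library.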

Additional observations from a re-analysis of the deposited data

Results flagged for a closer look

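Of the 30 sets of values (10 members in 3 diets), 4 held a library far from the others of its diet by Dixon's criterion, which chance alone reaches in about 1 of 20 sets. In 3 of them this was UL replicate 32, the highest of 6 UL piglets for CDH5 (55.5 CPM, next 33.0 CPM, 855 reads), for the VWF/ANO2 model (12.1 CPM, next 7.34 CPM, 186 reads) and for KDR (27.9 CPM, next 18.2 CPM, 430 reads). The other was control replicate 21, the lowest of 6 control piglets for PECAM1 (47.7 CPM, next lowest 68.7 CPM, 750 reads). The same criterion did not single out PECAM1 in UL replicate 32, at 128 CPM, because UL replicate 27 was low at 37.7 CPM.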

How the results depend on the processing

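No member was called under any of the 25 alternatives run, but DESeq2 gave no adjusted p to 2 members in UL vs control (FLT1 and EGFL7), nor in ULU vs UL to 8 members when fitted to 2 diets and 9 when fitted to all libraries, so these could not be called there. Otherwise the smallest adjusted p reached by any member was 0.175, in ULU vs control without control replicate 21. No paired analysis was possible because the diets share no replicate numbers. The number of genes called over the whole table did depend on the method. DESeq2 fitted to 2 diets called 149, 825 and 246 genes for UL against control, ULU against control and ULU against UL, and fitted to all 17 libraries 152, 1069 and 252. edgeR on 2 diets called 111 in ULU vs control and 1 in ULU vs UL, and without the filter on low counts 228 and 8. Leaving out both UL replicate 32 and control replicate 21 left 1 in ULU vs UL. Leaving out 1 library at a time gave 0 to 16, 147 to 799 and 1 to 7 genes, the 147 without ULU replicate 43 and the 799 without control replicate 25. The cause was not tested.

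Of the correlated pairs, 12 passed when diet means were kept, 9 to 22 when 1 library was left out, and 4 without both of the named libraries. The sign of small estimates turned under some settings, none with a call. In ULU vs control CLDN5 was at 0.0004 under DESeq2 on all libraries and at 0.0055 without the filter. Without both named libraries, UL vs control gave -0.21 for PECAM1, -0.063 for CLDN5, -0.14 for TIE1, -0.13 for EGFL7 and -0.0098 for ENG, and ULU vs UL gave 0.091 for CDH5. With 1 library left out, UL vs control ranged from -0.12 to 0.24 for PECAM1, -0.26 to 0.42 for the VWF/ANO2 model, -0.20 to 0.049 for FLT1, -0.0003 to 0.32 for TIE1, -0.0032 to 0.19 for ENG and -0.17 to 0.32 for EGFL7. ULU vs control ranged from -0.23 to 0.12 for CLDN5 and -0.63 to 0.037 for the VWF/ANO2 model, and ULU vs UL from -0.29 to 0.091 for CDH5, -0.059 to 0.21 for KDR and -0.22 to 0.0031 for TEK. EGFL7 and FLT1 rested on 17 to 74 reads per library; the share of counting error in their spread was not tested.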
